A study of Rattus norvegicus with 24 samples.

Results

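Intermediate filaments are rope-like polymers of the cytoskeleton, and 6 of their genes (Gfap, Vim, Nes, Nefl, Nefm and Ina) were followed in rat neural stem cells and in cells differentiated from them with or without vitamin C. The genes were chosen as a list of filament genes of stem cells, astrocytes and neurons and matched by symbol. All 6 of 6 were among the 12187 genes listed, and all 6 passed the filter on low values. The cells came from Sprague-Dawley rats. The 3 groups were cells differentiated with vitamin C (labelled VC+), cells differentiated without it (VC-) and undifferentiated neural stem cells (D0), with 2 RNA-seq libraries each. In the differentiated groups the replicate 1 libraries carry a D4 label and the replicate 2 libraries a D5 label. The medium, the factors that started differentiation, the vitamin C dose and whether replicates were separate cultures or animals are not given in the sources used here, so p-values measure only the spread between these libraries. Differences between the differentiated groups and D0 carry the added agents and the time in culture together, which cannot be told apart.

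A cell's filament genes are a classical sign of its identity. Nestin (Nes) is typical of dividing neural stem and progenitor cells and copolymerises with vimentin. Vimentin (Vim) is shared by stem cells, immature astrocytes and most mesenchymal cells such as fibroblasts. Glial fibrillary acidic protein (Gfap) is the filament of mature and reactive astrocytes and of radial-glia-like stem cells. The light and medium neurofilament chains (Nefl, Nefm) and alpha-internexin (Ina) build the filaments of axons, and Ina is known to appear early in neuronal development.

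The libraries held 4811094 to 13184601 reads on the listed genes, with fewer in every replicate 1 library than in any replicate 2 library. Levels are in CPM (reads relative to the library total the authors scaled by). CPM is not corrected for gene length, so levels are compared between libraries and not between genes. The replicates differed widely in the markers of other cells. The summed CPM of 12 fibroblast, pericyte and meninges genes was 4622 to 11142 in replicate 2 and 317 to 451 in replicate 1. That of 13 microglia and macrophage genes was 857 to 1695 in replicate 2 and 4.78 to 6.05 in replicate 1. The summed CPM of 14 oligodendrocyte lineage genes was 847 to 1206 in replicate 2 and 2345 to 13292 in replicate 1. The study's description calls the differentiated cells neurons. The neuronal marker Rbfox3, singled out here, stood at 6.70 and 7.63 CPM in VC+ and at 7.44 and 10.6 CPM in VC-. It was also detected in the undifferentiated D0 libraries, at 3.15 and 6.44 CPM. In bulk RNA, fewer cells of a type and less RNA per cell cannot be told apart.

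Gfap was highest in VC+, intermediate in VC- and lowest in D0 in both replicates, and Nes had the opposite order. Nefl, Nefm and Ina were lower in VC+ than in VC- in both replicates. Vim was higher in replicate 2 than in replicate 1 in every group, and its order of groups differed between the replicates.

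The DNA just before the start of Gfap and Nes is shown because these members had opposite orders of level and because the study profiled DNA methylation, which in vertebrates falls mainly on CG pairs. Each line gives the 250 bases before the start of 1 transcript from 5′ to 3′ on the gene's strand, from RefSeq (build GRCr8), with every CG pair in capitals. The Gfap stretch lies at chr10:88361662-88361911 on the minus strand and the Nes stretch at chr2:175736338-175736587 on the plus strand.
Gfap: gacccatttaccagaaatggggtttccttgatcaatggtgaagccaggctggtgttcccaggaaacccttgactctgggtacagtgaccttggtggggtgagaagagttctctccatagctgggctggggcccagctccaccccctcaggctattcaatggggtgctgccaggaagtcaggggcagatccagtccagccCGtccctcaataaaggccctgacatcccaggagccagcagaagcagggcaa
Nes: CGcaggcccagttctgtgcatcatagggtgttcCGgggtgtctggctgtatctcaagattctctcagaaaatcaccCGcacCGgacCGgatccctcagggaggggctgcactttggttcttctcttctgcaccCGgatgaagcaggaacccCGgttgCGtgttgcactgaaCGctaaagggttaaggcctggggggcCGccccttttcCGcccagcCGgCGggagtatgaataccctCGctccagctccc

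The Gfap stretch held 1 CG pair, at position -51 from the start, and the Nes stretch held 14. The same window held 11 CG pairs for Vim and 21 for Ina, and the median of 33469 rat promoters was 5. Only 7.83% of those promoters had fewer CG pairs than Gfap, against 72.4% that had fewer than Nes. Methylation values were not analysed here, so nothing is known from these files of the state of these CG pairs. Both strands of these 250 bases, and no sequence beyond them, were also searched for 4 motifs. TTGGC, the half-site of nuclear factor I proteins, had 2 matches in the Vim window, 1 in that of Ina and 0 in those of Gfap and Nes, and it was present in 40.3% of all promoters. The motif TATAAA (known as the TATA box) had 1 match, in Vim, against 12.9% of all promoters. TTCNNNGAA, the palindrome bound by STAT proteins, had 0 matches in any of the 4 windows (7.67% of all promoters), and neither had ACGTG, a core of hypoxia response elements (16.6%).

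Gfap, the astrocyte filament, stood at 684 and 2072 CPM in the VC+ libraries of replicates 1 and 2, at 101 and 224 CPM in VC- and at 1.77 and 57.9 CPM in D0. Each VC+ library was above each VC- library, and each VC- library above each D0 library, so no groups overlapped. The lowest value rested on 14 reads, in replicate 1 of D0, and the next lowest, in replicate 2 of D0, on 882 reads. The means were 1378 ± 982 CPM in VC+, 163 ± 86.9 CPM in VC- and 29.9 ± 39.7 CPM in D0 (SD, n = 2). Within replicates the VC+ level was 6.76 times that of VC- in replicate 1 (exact 95% interval 6.30 to 7.26) and 9.25 times in replicate 2 (8.96 to 9.55). These intervals, like the others on ratios of levels given here, cover the counting of reads in 1 library against 1 and not the spread between libraries.

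The fitted Gfap difference on log2(CPM + 0.5), VC+ minus VC-, was 2.98 (SE 1.61, 95% interval -1.13 to 7.09), and limma did not call it (adjusted p 1.00). It ran from 2.18 without replicate 2 of VC+ to 3.78 without replicate 1 of VC+, with an adjusted p of 1.00 without any 1 library. The replicates gave 2.75 and 3.21, so each was higher in VC+ by a similar amount. With the replicate number as a term (a paired fit), limma gave the same difference with an SE of 0.884 and an adjusted p of 1.00. Paired DESeq2 on the recovered reads called it at 2.90 (SE 0.758, adjusted p 0.0488), just under the threshold of 0.05, and the alternatives spanned adjusted p values of 0.0488 to 1.00. Gfap was the 1 member of 6 called there, where 0.263% of all genes tested were called.

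Against stem cells, Gfap had a difference of 6.69 (SE 1.61, limma adjusted p 1.00) in VC+ and of 3.71 (SE 1.61, adjusted p 1.00) in VC-. The VC+ difference was 8.24 in replicate 1 and 5.15 in replicate 2, and the VC- difference 5.49 and 1.94, the replicate 1 values resting on the 14 stem cell reads. In replicate 1 the VC- level was 57.3 times that of D0 (exact 95% interval 34.0 to 105), and in replicate 2 it was 3.87 times (3.59 to 4.16). Paired DESeq2 called Gfap higher in VC+ (6.37, adjusted p 5.12e-14) and in VC- (3.46, adjusted p 0.000679). DESeq2 without the replicate term called it in VC+ (5.52, adjusted p 0.00908) and not in VC- (0.949). Among the alternatives, adjusted p values reached 1.00 for both. The limma difference without 1 library ran from 4.35 to 9.04 for VC+ and from 1.37 to 6.06 for VC-, in each case lowest without replicate 1 of D0 and highest without replicate 2 of D0.

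Nes, the stem cell filament, stood at 35.3 and 32.5 CPM in VC+, at 81.6 and 53.5 CPM in VC- and at 159 and 116 CPM in D0. The 3 groups did not overlap, and the ranking D0, VC-, VC+ from high to low held within each replicate. The means were 33.9 ± 1.96 CPM in VC+, 67.5 ± 19.9 CPM in VC- and 137 ± 30.6 CPM in D0 (SD, n = 2). Nes had the smallest standard error of the 6 members. Its VC+ minus VC- difference was -0.95 (SE 0.30, 95% interval -1.72 to -0.18), -1.20 in replicate 1 and -0.71 in replicate 2. It was at an unadjusted p of 0.0247 and an adjusted p of 1.00 in limma, and paired DESeq2 did not call it (-0.96, adjusted p 0.211). Paired limma gave the same difference with an SE of 0.18 (95% interval -1.43 to -0.48) and did not call it either.

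Against stem cells, the Nes difference was -1.98 (SE 0.30, 95% interval -2.76 to -1.21) in VC+ and -1.03 (SE 0.30, 95% interval -1.80 to -0.26) in VC-. The D0 level was 4.50 times that of VC+ in replicate 1 (exact 95% interval 4.01 to 5.07) and 3.56 times in replicate 2 (3.25 to 3.89). Limma called neither difference (adjusted p 0.974 for VC+ and 1.00 for VC-), although Nes had the 10th smallest p of the 11823 genes for VC+. Paired limma gave the same differences with an SE of 0.18 and called neither (adjusted p 0.0819 for VC+ and 0.191 for VC-). Paired edgeR called neither (adjusted p 0.0719 and 0.185). DESeq2 called the VC+ difference with the replicate term (adjusted p 2.87e-09) and without it (-2.03, 2.66e-05), and the VC- difference with it (-1.04, 0.0146) but not without it (0.276). Among the alternatives, adjusted p values reached 1.00 for both. Like Nes, the summed CPM of 12 proliferation genes was lower in both differentiated groups than in D0. Unlike Nes, it was not lower in VC+ than in VC-. The sums were 560 and 522 in VC+, 551 and 403 in VC- and 1138 and 829 in D0. For VC+ against VC-, 5 of the 12 were higher and 2 lower in both replicates, beside 30.0% and 26.4% of all genes. The median difference there was 0.08. For each differentiated group against D0, 10 of these 12 were lower without overlap, beside 13.2% of all genes in each comparison. Paired DESeq2 called 7 lower in each, where it called 6.43% of all genes for VC+ and 3.88% for VC-. The part of proliferating cells in the Nes difference was not tested.

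**Figure D1:**
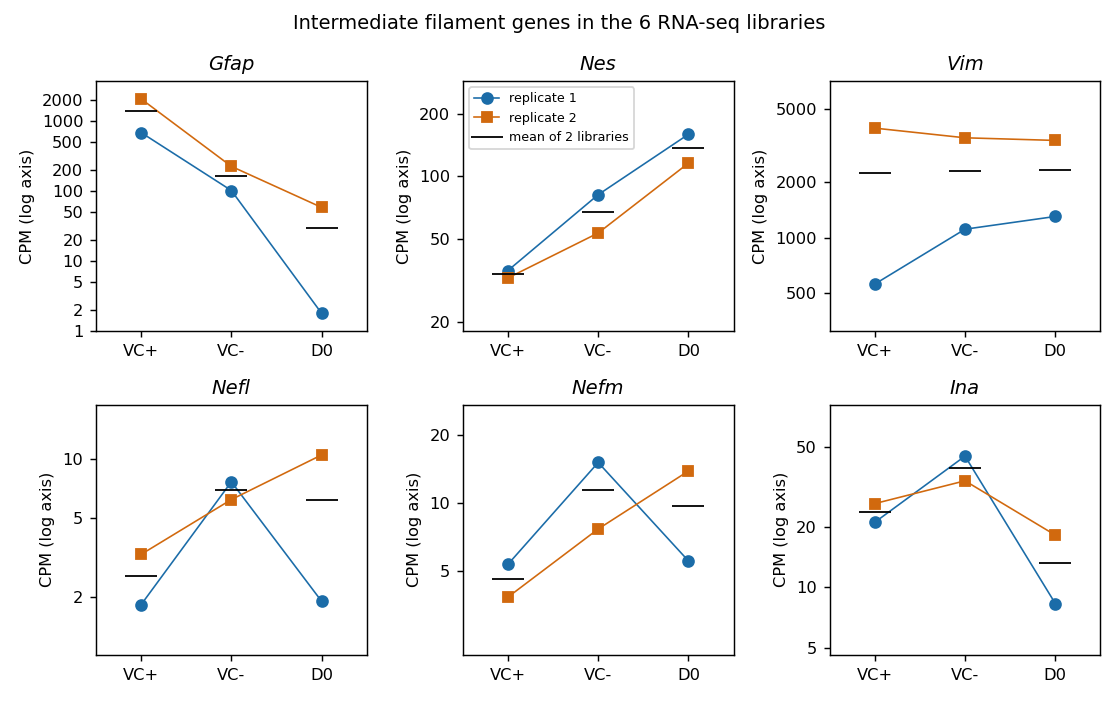
Level of each filament gene in CPM on a log axis, in VC+, VC- and D0, with replicate 1 as circles, replicate 2 as squares, lines joining libraries of the same replicate and bars for the mean of 2 libraries. Gfap runs from 2072 CPM in VC+ to 1.77 CPM in D0, Nes has the opposite order in both replicates, and the Vim libraries of replicate 2 all lie above those of replicate 1.

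Vim, the filament of stem cells, immature astrocytes and mesenchymal cells, stood at 560 and 3930 CPM in VC+, at 1112 and 3482 CPM in VC- and at 1304 and 3370 CPM in D0. All groups overlapped, because every replicate 2 library was above every replicate 1 library. In VC+ the Vim level of replicate 2 was 7.01 times that of replicate 1, in VC- 3.13 times and in D0 2.58 times. The replicates disagreed on direction. VC+ minus VC- was -0.99 in replicate 1, with a level 0.504 times that of VC- (exact 95% interval 0.488 to 0.520), and 0.17 in replicate 2, with a level 1.13 times that of VC- (1.12 to 1.14). The fitted differences were -0.41 (SE 1.20, 95% interval -3.47 to 2.65) for VC+ against VC-, -0.50 (SE 1.20) for VC+ against D0 and -0.09 (SE 1.20) for VC- against D0. Limma called none of them (adjusted p 1.00 each), and paired DESeq2 did not either (adjusted p 1.00, 0.756 and 0.978). Paired limma gave the same differences with an SE of 0.50 and called none.

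The replicate term of the limma fit, replicate 2 minus replicate 1, called Vim higher by 1.94 (SE 0.41, adjusted p 0.0311), the 1 member of 6 called, where 25.1% of all genes were called. That call was lost without either VC+ library or either VC- library (adjusted p 0.117 to 0.193). The number of genes called by the term ran from 0 without replicate 2 of VC- to 5049 without replicate 2 of D0. It was 754 and 731 without the VC+ libraries of replicates 1 and 2, 58 without replicate 1 of VC- and 4945 without replicate 1 of D0. Gfap, at 2.48 (SE 0.72, adjusted p 0.0639), was not called. It was called with quantile normalization (0.0393), by DESeq2 (0.000666) and without replicate 1 or 2 of D0 (1.37 in both, 0.00221 and 0.000947). Of the fibroblast, pericyte and meninges list, 12 of 12 genes were, like Vim, higher in replicate 2 in all 3 groups, beside 32.5% of all genes. So were 13 of 13 microglia and macrophage genes and 8 of 9 endothelial genes. Within replicate 2, Vim was highest in VC+ (3930 CPM) and lowest in D0 (3370 CPM). The summed fibroblast, pericyte and meninges list was instead lowest in VC+ (4622 CPM) and highest in D0 (11142 CPM). Col1a1, a fibrillar collagen chain, was at 49.9 and 1759 CPM in VC+, 115 and 2969 CPM in VC- and 39.1 and 5968 CPM in D0. The part of any of these cell types in the Vim level was not tested.

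Nefl, the light neurofilament chain, had the fewest reads of the 6 members summed over libraries, with 15 to 160 reads per library. It stood at 1.82 and 3.28 CPM in VC+, at 7.67 and 6.23 CPM in VC- and at 1.89 and 10.5 CPM in D0. The VC+ libraries were below both VC- libraries, while D0 overlapped both differentiated groups. The VC+ minus VC- difference was -1.33 (SE 0.84, 95% interval -3.47 to 0.82, limma adjusted p 1.00), -1.82 in replicate 1 and -0.83 in replicate 2. In replicate 1 the VC+ level was 0.237 times that of VC- (exact 95% interval 0.134 to 0.400), and in replicate 2 it was 0.526 times (0.385 to 0.714), so both intervals lay below 1.

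Nefm, the medium chain, stood at 5.36 and 3.84 CPM in VC+, at 15.1 and 7.68 CPM in VC- and at 5.55 and 13.9 CPM in D0. The VC+ libraries lay below those of VC- and, by a small margin, below those of D0. The VC+ minus VC- difference was -1.16 (SE 0.61, 95% interval -2.73 to 0.40, limma adjusted p 1.00), -1.41 and -0.92 in the 2 replicates. Against stem cells, VC- differed in opposite directions in the replicates for both chains. Nefm had 1.37 in replicate 1 and -0.81 in replicate 2 and Nefl 1.77 and -0.71, around fitted differences of 0.28 (SE 0.61) and 0.53 (SE 0.84). VC+ minus D0 was -0.05 and -1.73 for Nefm and -0.05 and -1.54 for Nefl. Limma and paired DESeq2 called no comparison between groups for either chain. Both genes lie on chromosome 15 (RefSeq, GRCr8) with 1 annotated gene between them.

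Ina, the neuronal filament chain of early axons, stood at 21.1 and 26.1 CPM in VC+, at 44.9 and 33.8 CPM in VC- and at 8.32 and 18.2 CPM in D0. No groups overlapped: VC- was highest, VC+ intermediate and D0 lowest in both replicates. The VC+ minus VC- difference was -0.72 (SE 0.44, 95% interval -1.85 to 0.40, limma adjusted p 1.00), -1.07 in replicate 1 and -0.37 in replicate 2. In replicate 2 the VC+ level was 0.770 times that of VC- (exact 95% interval 0.686 to 0.865). Against stem cells the difference was 0.90 (SE 0.44) in VC+ and 1.62 (SE 0.44, 95% interval 0.49 to 2.75) in VC-. Limma called neither (adjusted p 1.00), and paired DESeq2 called that of VC- (1.64, adjusted p 0.0197) and not that of VC+ (0.85, 0.420). DESeq2 without the replicate term did not call VC- (0.262), and the alternatives spanned adjusted p values of 0.0197 to 1.00.

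**Figure D2:**
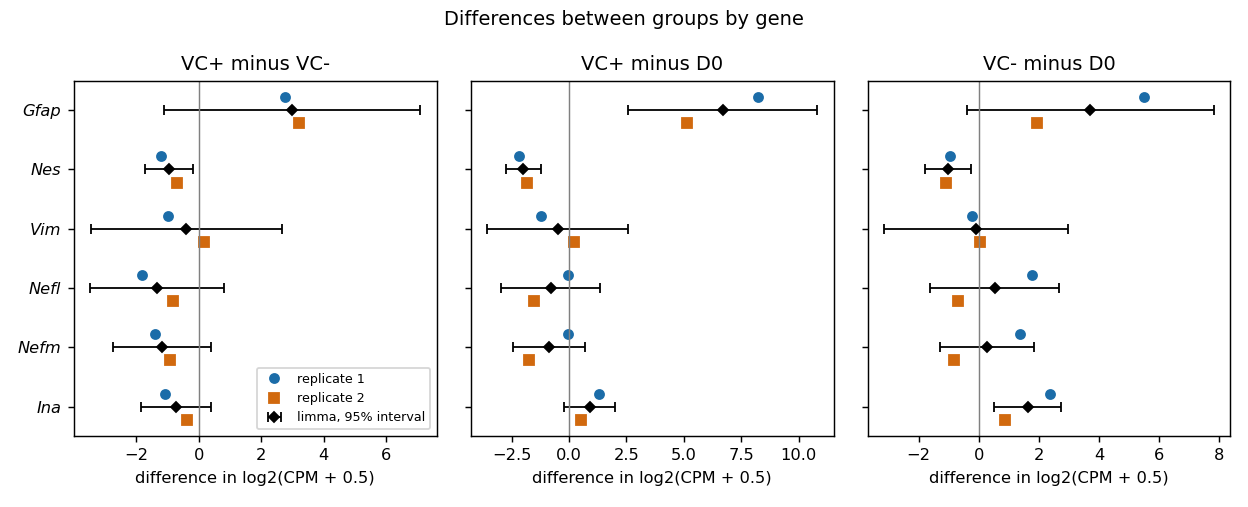
Difference in log2(CPM + 0.5) for each filament gene, VC+ minus VC- on the left, VC+ minus D0 in the middle and VC- minus D0 on the right, each panel with its own scale. Diamonds with bars are limma estimates with 95% intervals, circles are replicate 1 and squares replicate 2, and the Nes intervals (-1.72 to -0.18, -2.76 to -1.21 and -1.80 to -0.26) lie below 0 in all panels.

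Over the members, limma called 0 of 6 in each comparison between groups, as it called 0% of all 11823 genes tested for VC+ against VC-, 0% for VC- against D0 and 0% for VC+ against D0. At an unadjusted p under 0.05 there were 1, 2 and 2 members and 62, 382 and 507 genes, and edgeR also called 0 genes in each. For VC+ against VC- the groups did not overlap for 5 members, 1 higher (Gfap) and 4 lower (Nes, Nefl, Nefm and Ina), where 8.15% of all genes were higher and 7.82% lower without overlap. The median of the 6 differences was -0.84, beside 0.02 over all genes. For VC- against D0, 2 members were higher (Gfap and Ina) and 1 lower (Nes) without overlap, beside 13.8% and 13.2% of all genes, and paired DESeq2 called these 3, beside 3.88% of all genes. For VC+ against D0, 2 were higher (Gfap and Ina) and 2 lower (Nes and Nefm), beside 14.2% and 13.2% of all genes, and paired DESeq2 called Gfap and Nes, beside 6.43%. The comparisons share libraries, so their counts are not independent of each other.

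Across the 6 libraries, which share replicate number and group, log2(CPM + 0.5) of Gfap and Nes had a Pearson correlation of -0.95 and that of Nefl and Nefm of 0.83. Ina had correlations of 0.54 with Nefl and 0.37 with Nefm. Among 8492 other genes with a mean of at least 10 CPM, those most like Gfap were Sri (0.988), the ectonucleotidase gene Entpd2 (0.983) and the astrocyte water channel gene Aqp4 (0.980). Aqp4 stood at 2322 and 2392 CPM in VC+, 385 and 687 CPM in VC- and 59.1 and 470 CPM in D0. Entpd2 stood at 30.0 and 64.8, 8.02 and 20.3, and 1.26 and 5.45 CPM in the same groups. Those most like Nes were the ribosomal protein gene Rps18 (0.990), the translation elongation gene Eef1g (0.985) and the collagen chain gene Col5a3 (0.981). Col5a3 stood at 43.7 and 49.7 CPM in VC+, 149 and 125 CPM in VC- and 625 and 451 CPM in D0. For Ina they were Atp6v1g2 (0.994), Psmd9 and Ap2m1 (0.989 each), and for Nefl Acads, Pex14 and Srsf9 (0.971 to 0.988). For Nefm they were RGD1308106, Minos1 and Oxa1l (0.946 to 0.972). Each correlation is a description of 6 libraries and takes no account of the size of a change. Sri ran only from 30.1 to 45.6 CPM over the libraries, and Ap2m1 only from 285 to 368 CPM. The Vim libraries fell apart by replicate, so its nearest genes, Tox2, Tes and Cd24, are named without a correlation.

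Other filament chains gave a wider view of the family. Of 21 listed chains 15 were in the table and 13 were tested. Limma called 0 of them between groups. Paired DESeq2 called 0 for VC+ against VC-, 1 higher for VC- against D0, and 2 higher and 1 lower for VC+ against D0, beside 0.263%, 3.88% and 6.43% of all genes called in either direction. The chain called in both was Synm, which encodes synemin, a large chain that copolymerises with vimentin and other filament proteins. Synm stood at 96.5 and 155 CPM in VC+, at 43.1 and 109 CPM in VC- and at 4.67 and 17.0 CPM in D0. Both differentiated groups lay above D0 without overlap, and VC+ overlapped VC-. The Synm difference from D0 was 3.69 (SE 0.75, limma adjusted p 0.974) in VC+ and 2.86 (SE 0.75, limma adjusted p 1.00) in VC-, with paired DESeq2 at adjusted p 4.27e-18 and 3.86e-10.

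The nuclear lamins line the inner nuclear membrane. Lmnb1 (lamin B1) stood at 92.3 and 51.2 CPM in VC+, 109 and 49.4 CPM in VC- and 149 and 109 CPM in D0, and paired DESeq2 called it lower in VC+ than in D0 (-0.91, adjusted p 0.0496; limma adjusted p 1.00). Lmna (lamin A/C) was at 38.9 and 136 CPM in VC+, 55.3 and 126 CPM in VC- and 34.3 and 160 CPM in D0, and it followed the replicate (1.73, SE 0.22, limma adjusted p 0.01002). Iffo1, an intermediate filament family orphan, stood at 112 and 89.8 CPM in VC+, 80.9 and 67.1 CPM in VC- and 86.3 and 55.2 CPM in D0, with VC+ above both other groups without overlap and no call.

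The keratins of simple epithelia, Krt8 and Krt18, were singled out after their values were seen. Krt8 had 0.861 and 114 CPM in VC+, 0.349 and 23.9 CPM in VC- and 1.39 and 0.985 CPM in D0. Krt18 had 0.0957 and 59.7 CPM in VC+, 0 and 8.81 CPM in VC- and 0 and 0.788 CPM in D0. Their high values stood in the differentiated libraries of replicate 2 alone, and the DESeq2 call of Krt18 for VC+ against D0 (adjusted p 8.05e-07; limma adjusted p 1.00) rested on that replicate. The list had a median difference of 0.75 for VC+ against VC-, with 3 of 13 members higher and 0 lower without overlap (8.15% and 7.82% of all genes), and medians of 0.09 for VC- and -0.03 for VC+ against D0. Over all genes the medians were 0.02, 0.01 and 0.01. The 3 members higher without overlap were Iffo1, Des and Bfsp1. In VC-, Des was at 0.233 and 0.161 CPM and Bfsp1 at 0.814 and 0.752 CPM, all under 1 CPM. The median of 0.75 was the value of Prph, which ran from 0.698 to 5.32 CPM over the libraries.

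**Figure D3:**
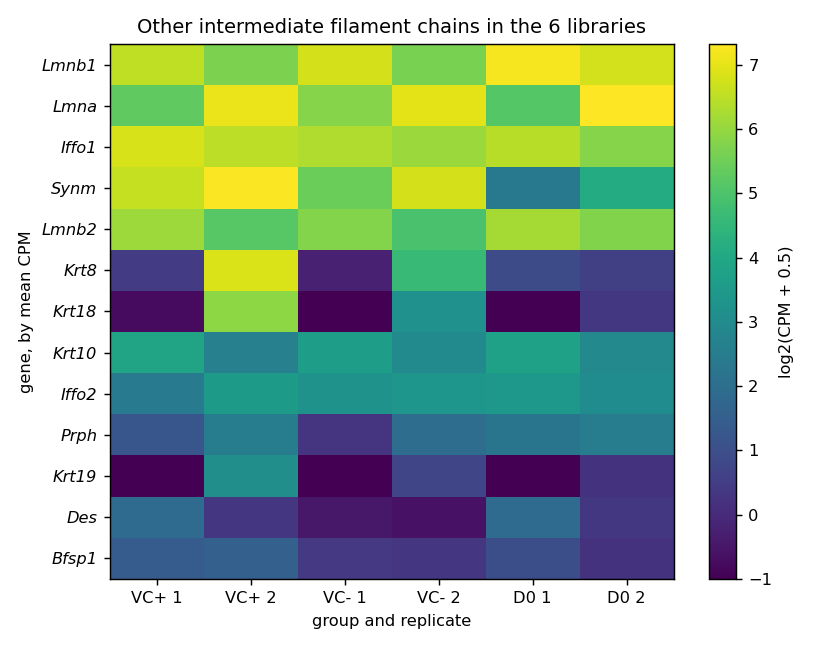
Level of the 13 other filament chains tested, as log2(CPM + 0.5) by colour, with VC+, VC- and D0 libraries from left to right and genes from highest to lowest mean CPM. Synm is higher in all 4 differentiated libraries (43.1 to 155 CPM) than in both D0 libraries (4.67 and 17.0 CPM), and Krt8 and Krt18 are high in the differentiated libraries of replicate 2.

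Partners of the filaments were followed as lists, and limma called 0 members of any list between groups. Genes named below because DESeq2 called them were named after their values were seen. Among 7 linkers and chaperones tested, the median difference was 0.46 for VC+ against VC- (0.02 over all genes), with 2 members higher and 0 lower without overlap (8.15% and 7.82% of all genes). The cytoskeletal crosslinker gene Macf1 was at 417 and 413 CPM in VC+, 314 and 463 CPM in VC- and 475 and 440 CPM in D0. Plec, which encodes the linker plectin, was at 129 and 360 CPM in VC+, 71.5 and 277 CPM in VC- and 31.9 and 248 CPM in D0, and it was called with the replicate (2.12, limma adjusted p 0.0123). Paired DESeq2 called 1 of the 7, Ppl (periplakin), at 2.30 and 12.5 CPM in VC+, 1.51 and 6.45 CPM in VC- and 0.378 and 2.497 CPM in D0, for VC+ against D0 (2.38, adjusted p 0.0112; limma adjusted p 1.00), where 6.43% of all genes were called.

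Among 18 genes of filament kinases, phosphatases and turnover, the median difference was 0.03 for VC+ against VC-, 0.00 for VC- against D0 and 0.10 for VC+ against D0. Paired DESeq2 called 0, 1 and 1 of them, near the shares of all genes called (0.263%, 3.88% and 6.43%). The member called was Plk1, a mitotic kinase, at 28.6 and 22.7 CPM in VC+, 35.8 and 18.1 CPM in VC- and 81.1 and 46.3 CPM in D0. Ppp1ca, a catalytic subunit of protein phosphatase 1, stood at 176 and 137 CPM in VC+, 225 and 153 CPM in VC- and 197 and 175 CPM in D0, with groups that overlapped.

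Of 24 genes tested that are known from other studies to regulate Gfap or Nes, paired DESeq2 called 0 for VC+ against VC-, 1 lower for VC- against D0 and 2 lower for VC+ against D0. These counts were near the shares of all genes called (0.263%, 3.88% and 6.43%). Without overlap, 1 was higher and 1 lower for VC+ against VC-, beside 8.15% and 7.82% of all genes. For VC- against D0, 1 was higher and 6 lower, beside 13.8% and 13.2%. For VC+ against D0, 3 were higher and 7 lower, beside 14.2% and 13.2%. Lifr, a receptor subunit of the leukaemia inhibitory factor pathway that drives astrocyte formation, was called in both (adjusted p 0.00339 for VC- and 0.0354 for VC+). It stood at 48.7 and 36.3 CPM in VC+, 44.1 and 26.0 CPM in VC- and 87.1 and 73.7 CPM in D0. Pou3f3, a POU factor of neural progenitors, was called for VC+ (adjusted p 0.0373) and stood at 98.9 and 55.1 CPM in VC+, 123 and 58.4 CPM in VC- and 159 and 132 CPM in D0. Sox2, a stem cell transcription factor, overlapped between all groups, with 455 and 332 CPM in VC+, 452 and 343 CPM in VC- and 363 and 337 CPM in D0. Notch1, a receptor that maintains neural stem cells, was at 597 and 242 CPM in VC+, 525 and 258 CPM in VC- and 716 and 664 CPM in D0, below D0 without overlap and with no call.

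Marker lists of the cell types in which these filaments are typical moved as follows. The summed CPM of 19 astrocyte genes other than filaments was 13078 and 15771 in VC+, 6735 and 10677 in VC- and 5233 and 7840 in D0. For VC+ against VC-, 8 of the 19 were higher and 0 lower without overlap, beside the 8.15% and 7.82% of all genes, and paired DESeq2 called 2 higher, Agt and Aldh1l1, against 0.263% of all genes. The summed CPM of 11 stem cell and radial glia genes was 3316 and 1728 in VC+, 3448 and 1680 in VC- and 3483 and 3162 in D0. That of 15 neuronal genes was 1268 and 1089 in VC+, 1172 and 980 in VC- and 716 and 1047 in D0. For VC+ against VC-, 2 of the 15 neuronal genes were higher and 0 lower without overlap, beside the same 8.15% and 7.82%. By direction in both replicates, 3 were higher and 6 lower, beside 30.0% and 26.4% of all genes, and the median was -0.23. The neuronal list thus had no single direction, while Nefl, Nefm and Ina were lower in both replicates. The part of a changed share of these cells in the levels of the filament genes was not tested.

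**Figure D4:**
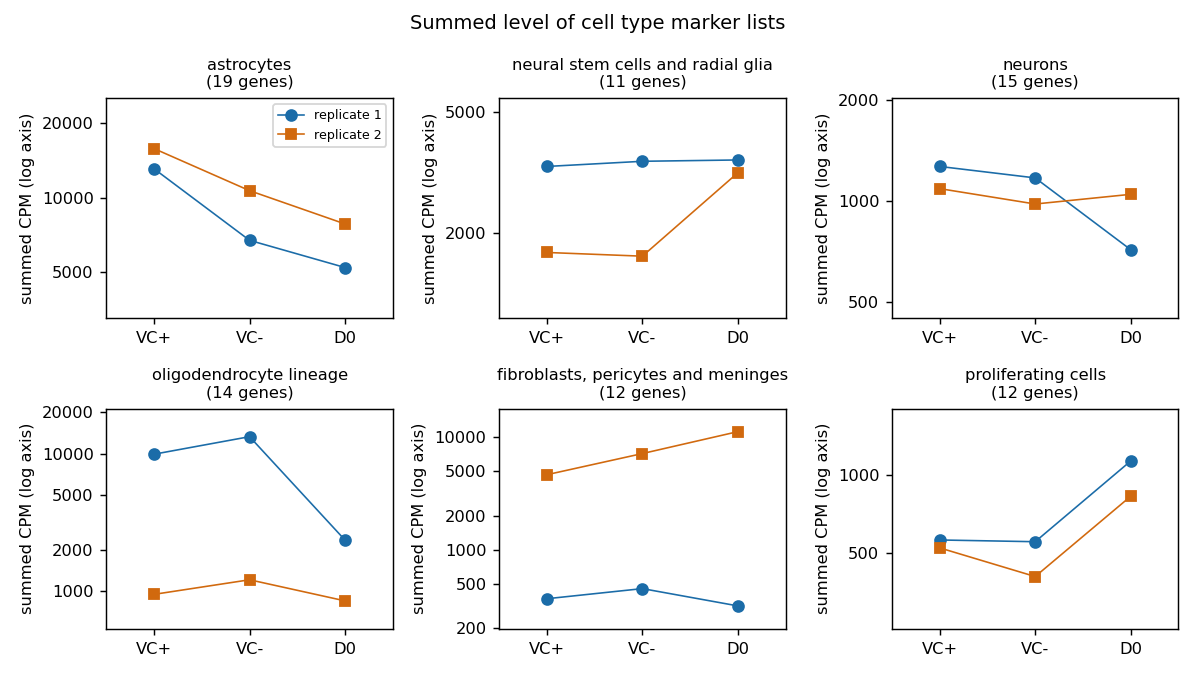
Summed CPM on a log axis of 6 marker lists in VC+, VC- and D0, with replicate 1 as circles and replicate 2 as squares, joined within a replicate. Astrocyte genes are highest in VC+ (13078 and 15771 CPM), and the fibroblast, pericyte and meninges list separates the replicates in all 3 groups (4622 to 11142 CPM in replicate 2, against 317 to 451 CPM in replicate 1).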

How the data were processed

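Expression was measured by RNA-seq in 6 libraries; the other 18 of the 24 samples were not analysed here. The table the authors deposited gives CPM for each gene, relative to a total of which the listed genes held 60.2% to 67.7%. Libraries were made with a TruSeq kit, per the labels' protocols. The submitters' processing notes name STAR 2.5.1, edgeR 3.12.1 and the rn5 build among tools for several assays; the read counter, annotation, strand setting and gene filter are not given in the sources used here. All values (100%, tolerance 1e-06) were whole multiples of 1 step per library, and dividing by it recovered the reads. A count of 0 allows up to 3 reads, 0.140 to 0.378 CPM; this covers counting error only.

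A gene was tested if 2 or more libraries reached 1 CPM (11823 genes). The test was limma 3.58.1 with a trend, two-sided, run under R 4.3.3 on values transformed as log2(CPM + 0.5). One fit held all groups, and Benjamini-Hochberg adjustment ran over all genes, with a threshold of 0.05. No permutation test was made, since 2 libraries against 2 allow no exact p under 0.333. Libraries of VC+ and VC- share a replicate number and a D4 or D5 label. Their deviations from group means correlated across genes at 0.914 (0.688 and 0.730 with D0, which shares the number only), so paired values are given. Limma values for comparisons between groups come from the fit without the replicate term unless called paired. Shifts shared by the libraries of a replicate count as spread in their SEs, intervals and p-values. With the term, the SE was 0.64 for Nefl, 0.58 for Nefm and 0.38 for Ina. Alternatives were 2 other pseudocounts, 2 other filters, 2 rescalings, no trend, the replicate term, leaving out each library, and count tests of the recovered reads with and without the replicate term (edgeR 4.0.16, DESeq2 1.42.0). The code was tested on simulated counts. The rule for named genes took the 6 members, the 3 genes most correlated with each, and up to 4 genes of highest mean CPM per list. List genes named because they were called were named after their values were seen. So were Rbfox3, Krt8, Krt18, Des, Bfsp1 and Prph. The members and lists were chosen with earlier results of these data known. Coordinates and sequences come from RefSeq GRCr8, where 4 of 6 members had a promoter entry.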

Additional observations from a re-analysis of the deposited data

How the results depend on the processing

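The 3 comparisons between groups gave 0 calls in limma under each alternative and without any 1 library, and 0 in edgeR. DESeq2 on recovered reads called 6, 63 and 133 genes for VC+ against VC-, VC- against D0 and VC+ against D0, and 32, 455 and 768 with the replicate block. Paired limma called 0 in each, with Gfap for VC+ against VC- at 2.98 (adjusted p 1.00), and paired DESeq2 moved Gfap past the threshold (2.90). The cause of these differences between tools was not tested. In DESeq2 the replicate block also added calls for VC- against D0 of Gfap (3.46), Nes (-1.04) and Ina (1.64); in limma and edgeR it changed no member's call between groups. The replicate term called 2483 to 3464 genes under the alternatives and 0 to 5049 when 1 library was left out.

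Of 414 alternative values for members, 18 had the opposite sign. For VC- against D0 they include Vim at 0.0033 with quantile normalization and 0.0077 in edgeR. The others arose when 1 library was left out. Vim then ran from -1.81 to 1.00 (VC+ against VC-), -0.91 to 0.73 (VC- against D0) and -1.90 to 0.91 (VC+ against D0). Nefl ran from -0.57 to 1.63 (VC- against D0) and -1.90 to 0.31 (VC+ against D0), and Nefm from -0.35 to 0.90 (VC- against D0). For the replicate term Nefm ran from -0.68 to 0.41 and Ina from -0.0495 to 0.69. Gfap, Nes and Ina kept their sign in the 3 comparisons between groups under all alternatives run. With 2 libraries per group and a lone library assumed to vary like the other groups when 1 was left out, these ranges show which library a value rests on. Nefl had as few as 15 reads, which limits its precision in replicate 1.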
